A study of Mus musculus with 50 samples.

Results

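The Hox genes of the 4 mammalian clusters were examined in skeletal muscle and perigonadal fat of mice from a study that activated GFRAL neurons in one of its genotypes. Members were all rows whose symbol was Hox followed by a cluster letter a to d and a paralogue number; there were 39 among 58477 gene identifiers over the 3 count tables, and all 39 were present in each table. Of these, 38 are described. HoxA held 11 members, HoxB 10, HoxC 9 and HoxD 9. In the mouse genome build GRCm38 (GENCODE vM21 annotation), HoxA lies on chromosome 6 on the minus strand, HoxB on chromosome 11, HoxC on chromosome 15 and HoxD on chromosome 2, the last 3 on the plus strand.

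Hox genes encode homeodomain transcription factors that give cells along the head to tail axis and along the limb their positional identity. Within a cluster the genes are numbered from the 3′ to the 5′ end into paralogue groups, genes of low number are switched on earlier and further forward in the embryo than genes of high number, and adult mesenchymal cells keep much of the pattern of the place they came from. The proteins bind DNA together with cofactors of the TALE class (Meis, Pbx and Pknox), polycomb complexes keep silent Hox genes off, trithorax complexes keep active ones on, and retinoic acid turns on the low-numbered genes in the embryo.

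All mice were male and carried the stimulatory designer receptor hM3DGq, which couples neurons to the drug clozapine N-oxide (CNO). The group called TG was Gfral Cre-positive, and the group called WT was Gfral Cre-negative, so it held the receptor transgene without Cre. Gfral, which drives the Cre, is the receptor for GDF15 and is known from hindbrain neurons. Both genotypes received CNO at 1 mg/kg, and no group without CNO was among the samples. There were 50 libraries: 10 WT and 10 TG from quadriceps of clamped mice, 9 and 9 from perigonadal white fat (pgWAT) taken 1 h after the drug, and 6 and 6 from the same depot taken at 6 h. The ages of the mice, and whether each library came from a separate mouse, are not given in the labels, so a p-value here reflects the scatter among these libraries, which may be technical.

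The libraries were 3′ tag libraries (QuantSeq), in which a transcript gives reads near its 3′ end, so gene counts scaled to a common library total (CPM) were compared between genes without division by length. Gene counts per library were 959980 to 2613672 in quadriceps, 976610 to 4852560 in pgWAT at 1 h and 9150496 to 12883462 in pgWAT at 6 h. A count of 0 in 1 library allowed up to 1.15 to 3.13, 0.618 to 3.07 and 0.233 to 0.328 CPM respectively, counting error only. Library kit and depth changed together with the time point, so levels at 1 h and 6 h are set side by side without a test. Summed myofibre markers were 35809 to 51478 CPM in quadriceps and 9.22 to 116 CPM in pgWAT, and summed adipocyte markers were 364 to 1303 CPM in quadriceps and 9555 to 39634 CPM in pgWAT, as the tissue labels state. In such bulk samples, fewer cells of a type and less RNA per cell cannot be told apart.

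Promoter sequence from RefSeq (build GRCm38.p6) was on hand for 22 of the 38 members. The 250 bases before the transcription start are shown for Hoxb4, Hoxb8 and Hoxd4, which were lower in TG fat at 6 h, and for Hoxd8, which neighbours Hoxd4 and was not called. None of the 4 windows overlaps an annotated exon, and that of Hoxd4 lies inside the span of longer Hoxd3 and Hoxd4 models. All are on the plus strand and are written 5′ to 3′: Hoxb4 at chr11:96318017-96318266, Hoxb8 at chr11:96281655-96281904, Hoxd4 at chr2:74721728-74721977 and Hoxd8 at chr2:74704365-74704614. Capitals mark the core homeodomain motif TAAT on either strand (written ATTA where it lies on the minus strand).
Hoxb4: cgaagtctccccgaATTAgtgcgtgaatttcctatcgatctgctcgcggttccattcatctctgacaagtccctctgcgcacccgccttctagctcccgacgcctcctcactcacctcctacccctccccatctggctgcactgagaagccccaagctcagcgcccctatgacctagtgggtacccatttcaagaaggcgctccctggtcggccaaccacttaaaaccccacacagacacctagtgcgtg
Hoxb8: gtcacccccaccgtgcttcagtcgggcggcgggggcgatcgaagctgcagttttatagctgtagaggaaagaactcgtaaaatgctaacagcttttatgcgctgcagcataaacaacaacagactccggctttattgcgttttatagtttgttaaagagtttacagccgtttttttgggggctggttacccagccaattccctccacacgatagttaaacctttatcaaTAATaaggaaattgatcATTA
Hoxd4: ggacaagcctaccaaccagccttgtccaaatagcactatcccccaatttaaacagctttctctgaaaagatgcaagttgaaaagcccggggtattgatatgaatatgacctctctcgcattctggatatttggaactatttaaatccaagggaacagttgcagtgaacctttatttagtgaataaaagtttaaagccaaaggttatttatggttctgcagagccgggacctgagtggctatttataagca
Hoxd8: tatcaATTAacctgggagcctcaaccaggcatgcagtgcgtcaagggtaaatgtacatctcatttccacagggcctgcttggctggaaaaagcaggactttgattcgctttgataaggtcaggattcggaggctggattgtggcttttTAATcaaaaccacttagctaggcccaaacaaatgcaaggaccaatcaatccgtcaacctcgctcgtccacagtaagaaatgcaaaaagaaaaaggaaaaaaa
The TAAT core occurred 1 time in the Hoxb4 window, 2 times in those of Hoxb8 and Hoxd8 and 0 times in that of Hoxd4. Over all 32841 RefSeq mouse promoter windows of this length, 54.9% held it on either strand. The joint Hox and TALE motif TGATNNAT, held by 7.69% of windows, was found in that of Hoxb8 and in none of the other three. The nuclear receptor half-site AGGTCA, held by 14% of windows, was found in those of Hoxb4, Hoxd4 and Hoxd8. The steroid receptor half-site AGAACA, held by 16.1% of windows, was found in none of the 4. These are letter matches only.

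The first question was which Hox genes the 2 tissues express. In quadriceps 32 of 38 members had at least 1 count, 23 had a mean of at least 1 CPM over the set, and 11 passed the count filter and were tested. In pgWAT the same numbers were 29, 23 and 18 at 1 h and 33, 22 and 22 at 6 h. Hoxb13, Hoxc12 and Hoxd12 had no count in any of the 50 libraries. Hoxa11, Hoxb1, Hoxc11, Hoxc13, Hoxd11 and Hoxd13 also had none in pgWAT at 1 h, and each of these had 0 to 4 counts over the 12 libraries at 6 h.

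**Figure D1:**
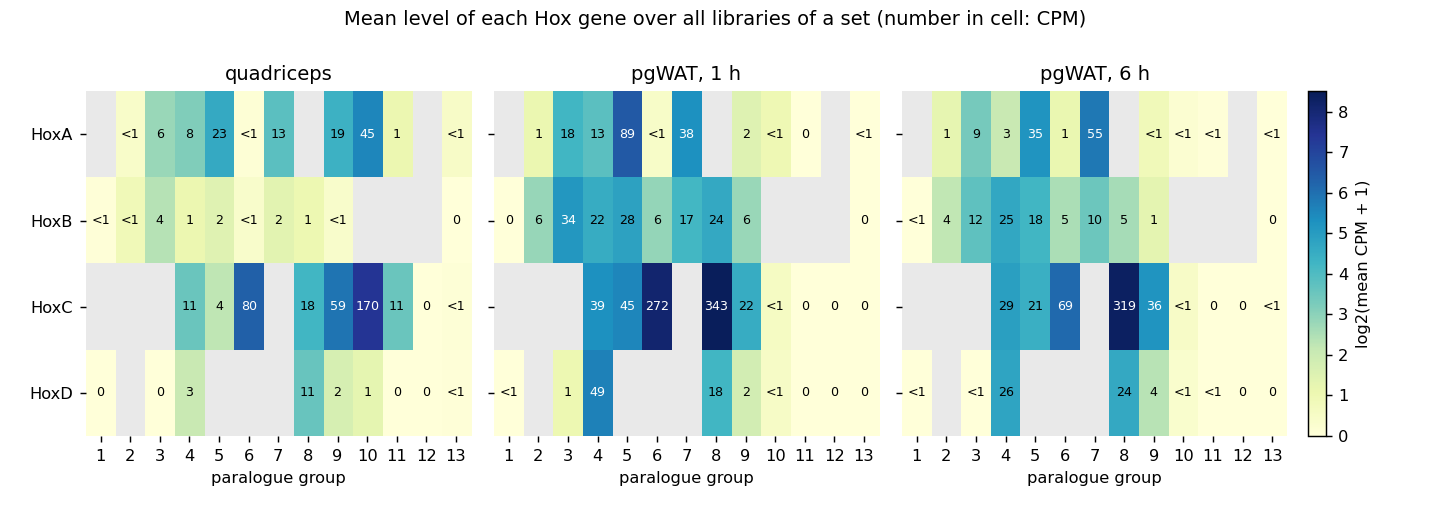
Mean level of each Hox gene over all libraries of a set, by cluster (rows) and paralogue group (columns); colour is log2(mean CPM + 1), the number is the mean CPM, <1 marks a mean below 1 CPM, 0 marks no count, and grey marks a group with no gene shown. Quadriceps was highest at Hoxc10 (170 CPM) and pgWAT at Hoxc8 (343 CPM at 1 h and 319 CPM at 6 h).

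HoxC transcripts made up most of the Hox counts in both tissues, but with different members in the lead. In WT libraries HoxC held a median of 70.9% of summed Hox CPM in quadriceps (66.6 to 78.3%), 69.2% in pgWAT at 1 h (40.2 to 75.9%) and 67.7% at 6 h (63.5 to 69.9%). HoxB held a median of 2.51% in WT quadriceps against 10.8% in WT pgWAT at 1 h and 11.8% at 6 h. Paralogue groups 9 to 13 held a median of 61.5% of Hox CPM in WT quadriceps (56.4 to 68.3%), 3.02% in WT pgWAT at 1 h (1.53 to 4.698%) and 6.01% at 6 h (5.11 to 7.27%). The ranges of quadriceps and pgWAT were far apart. The 38 members summed to a median of 512 CPM in WT quadriceps, 1039 CPM in WT pgWAT at 1 h and 784 CPM at 6 h.

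In quadriceps the 5 highest members were Hoxc10, Hoxc6, Hoxc9, Hoxa10 and Hoxa5. Hoxc10, a gene of the hindlimb and lumbar region, was at 142, 177 and 229 CPM (lowest, median and highest of 10 WT libraries) and at 131, 160 and 199 CPM in TG. The next member, Hoxc6, was at 60.1, 85.4 and 112 CPM in WT and 68.9, 72.8 and 86.9 CPM in TG, below every value of Hoxc10. Hoxc9 (WT 33.7 to 83.1 CPM) overlapped both Hoxc6 and Hoxa10 (WT 31.5 to 57.1 CPM), so the order of these neighbours lay within their spread. Hoxa5 had a mean of 23.3 CPM over the set and was followed by Hoxa9 at 19.4, Hoxc8 at 17.9 and Hoxa7 at 12.8 CPM. Hoxb3 was the highest HoxB member with a mean of 4.18 CPM, and Hoxd8 the highest HoxD member with 10.8 CPM.

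In pgWAT the 5 highest members at 1 h were Hoxc8, Hoxc6, Hoxa5, Hoxd4 and Hoxc5. Hoxc8, whose group marks the trunk, was at 133, 332 and 466 CPM in the 9 WT libraries at 1 h and at 280, 326 and 408 CPM in the 6 WT libraries at 6 h. Hoxc6 was at 170, 282 and 314 CPM in WT at 1 h and at 79.9, 91.8 and 118 CPM in WT at 6 h. Hoxc8 thus had like medians in both sets while Hoxc6 did not, with the kit and depth differing between them. At 6 h the 5 highest by the mean over both genotypes were Hoxc8, Hoxc6, Hoxa7, Hoxc9 and Hoxa5, the last 3 with set means of 55.3, 35.9 and 35.4 CPM. The order differed by genotype: in WT, Hoxc4 (a mean of 39.99 CPM) came before Hoxc9 (39.4) and Hoxa5 (36.2), and in TG, Hoxa7 (54.8) came before Hoxc6 (43.7) and Hoxa5 (34.5) before Hoxc9 (32.4). The highest HoxB member was Hoxb3 at 1 h (34.3 CPM) and Hoxb4 at 6 h (24.6 CPM), and the highest HoxD member was Hoxd4 in both (48.9 and 26.0 CPM), although at 6 h in TG Hoxd8 (24.2 CPM) lay above Hoxd4 (23.5 CPM).

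The tissue difference was tested in WT libraries, quadriceps against pgWAT at 1 h, with edgeR's quasi-likelihood test adjusted over all 10319 genes tested. The quadriceps titles name a clamp and no time after the drug, and the fat titles name a time and no clamp. Clamp and time therefore cannot be told apart from tissue in this comparison. Of 20 Hox genes tested, 5 were higher in quadriceps and 13 lower, where 40.2% of all genes were called higher and 40.6% lower (80.8% in all), so most genes of any kind differed between the tissues. By paralogue group, all 5 tested members of groups 9 to 13 were higher in quadriceps, and of the 15 tested members of groups 1 to 8, 13 were lower and 0 higher. The remaining members were Hoxa4 (log2 difference -0.06, adjusted p = 0.823) and Hoxd8 (0.12, adjusted p = 0.644). Enough counts in either tissue let a gene enter this test. Hoxa9, Hoxa10, Hoxc10 and Hoxc11 did not pass the filter in the fat set at 1 h. Hoxa3, Hoxa4, Hoxb3, Hoxb4, Hoxb5, Hoxb7, Hoxb8, Hoxc5 and Hoxd4 did not pass it in quadriceps. The direction of such members was largely set by how they entered, so the pattern by group is a description only. The median over the 20 was -0.98 and over all genes 0.00.

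Among the genes of high number, Hoxc10 had 2331 counts in the WT quadriceps libraries and 9 in the WT pgWAT libraries, a log2 difference of 8.99 (SE 0.23, adjusted p = 1.16e-23). Hoxa10 had 553 and 15 counts, a log2 difference of 6.26 (SE 0.36, adjusted p = 6.05e-14). Hoxc11 had 132 counts in quadriceps and 0 in pgWAT, which made it at least 61.8-fold higher on the scale of total counts, taking 3 counts over the WT pgWAT group as the limit. Hoxa9 was higher by 4.07 (SE 0.38, adjusted p = 7.25e-10) and Hoxc9 by 2.14 (SE 0.26, adjusted p = 1.67e-07). Hoxc9 was the highest of these genes in fat, at 7.16 to 44.6 CPM in WT at 1 h.

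Of the genes lower in quadriceps, Hoxc8 had the smallest p, with a log2 difference of -3.50 (SE 0.19, adjusted p = 3.24e-14). It was followed by Hoxb4 (-3.58, adjusted p = 8.79e-12), Hoxc5 (-2.93, adjusted p = 2.02e-11), Hoxb5 (-2.71, adjusted p = 2.34e-11), Hoxd4 (-3.03, adjusted p = 1.50e-09) and Hoxb8 (-3.80, adjusted p = 3.45e-09). All 5 tested HoxB members were lower, with differences from -3.80 to -2.34, and none of them had passed the count filter in quadriceps. Hoxa3, Hoxa5, Hoxa7, Hoxb3, Hoxb7, Hoxc4 and Hoxc6 made up the rest, with differences from -2.66 to -0.70. The antisense RNAs Hotairm1 of HoxA (-3.56, adjusted p = 8.74e-11) and Hoxb3os of HoxB (-3.42, adjusted p = 5.42e-10) were also lower in quadriceps. Neither RNA passed the count filter in quadriceps, so their direction too was largely set by how they entered. With scaling by total gene counts alone the median of all genes moved to -0.77, the all-gene calls changed from 4148 higher and 4194 lower to 2141 and 6608, and 5 Hox genes were higher and 15 lower, Hoxa4 and Hoxd8 then among the latter. With the 6 WT pgWAT libraries of 6 h in place of those of 1 h, Hoxa3 (-0.35), Hoxa5 (-0.27) and Hoxc6 (0.11) were not called and Hoxc9 was higher by 0.92. Hoxa3 also lost its call (-0.42) without the libraries high in markers of other tissues or heat shock.

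**Figure D2:**
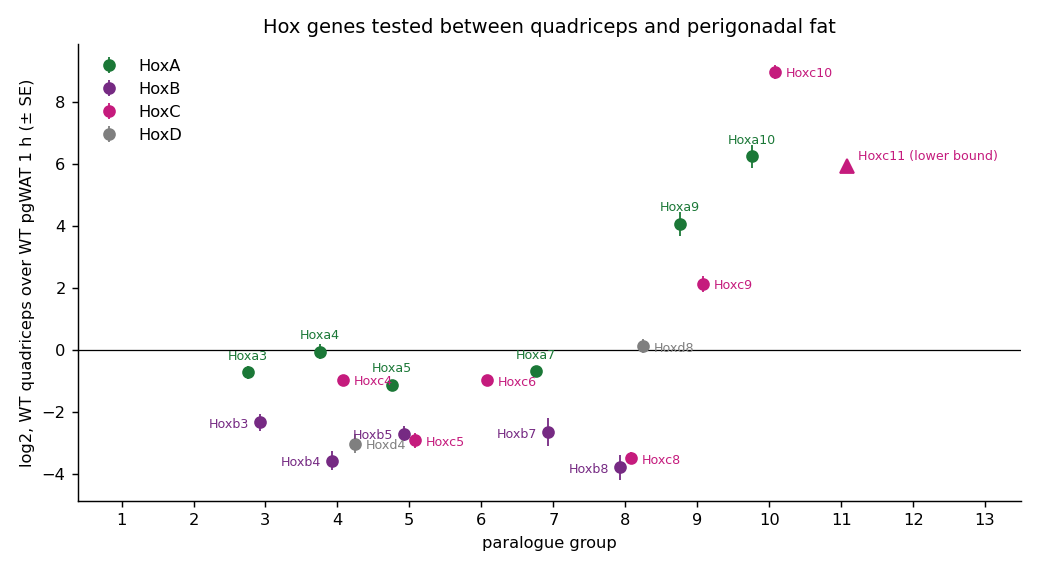
Log2 difference of each tested Hox gene between WT quadriceps (n = 10) and WT pgWAT at 1 h (n = 9) against paralogue group; bars are the SE, and the triangle is the lower bound for Hoxc11 (at least 61.8-fold, scaled by total counts). Points at groups 9 to 11 lie above 0 and those at groups 3 to 8 below it except Hoxd8 at 0.12.

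The TALE cofactors had calls in both directions between tissues. Of 6 tested, 1 was higher in quadriceps (Pknox2, 3.96) and 4 were lower, among them Meis2 (-3.07). Pknox2 did not pass the count filter in fat at 1 h, and Meis2 did not pass it in quadriceps. The direction of these genes was therefore largely set by how they entered. Other homeobox genes of muscle and limb were higher in quadriceps in 6 of 6 cases, including Six4 (5.48) and Six2 (7.18). The T-box gene Tbx15 was higher by 11.74. In the genotype comparisons, 6 genes of this homeobox list passed the count filter in quadriceps and 2 in fat at 1 h. Six2, Six4 and Tbx15 did not pass it in fat at 1 h. The direction of such genes was largely set by how they entered, so these values are a description only. Of all genes 40.2% were called higher and 40.6% lower in this comparison.

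The study's main question was whether TG differed from WT. In quadriceps none of the 11 tested Hox genes was called by edgeR's quasi-likelihood test, where 2.03% of 8070 genes were. DESeq2 called 0 as well. The unadjusted p was under 0.05 for 1 of 11, against 11.7% of all genes. That gene was Hoxa10, at 31.5, 38.01 and 57.1 CPM in WT and 38.2, 48.7 and 65.2 CPM in TG (log2 difference 0.26, SE 0.11, adjusted p = 0.327). The genotypes overlapped, and 9 of 10 TG libraries were above the WT mean. Over the 11 genes the log2 differences ran from -0.23 to 0.26 with a median of -0.12, against 0.00 over all genes. Hoxc10, the highest of them, differed by -0.09 (SE 0.09). Hoxb5 did not pass the count filter, with 33 counts in WT (2.75 ± 1.49 CPM, SD, n = 10) and 8 in TG (0.663 ± 0.869 CPM). None of the tested TALE (4), polycomb (17), trithorax (12), retinoic acid (6) or other homeobox (6) genes was called.

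In pgWAT at 1 h none of the 18 tested Hox genes was called by edgeR's quasi-likelihood test, where 0.0722% of 11087 genes were. DESeq2 called 0 as well, and 2 of 18 had an unadjusted p under 0.05, against 4.62% of all genes. Hoxa7 was at 19.2, 32.7 and 48.8 CPM in WT and 34.5, 38.9 and 58.0 CPM in TG (log2 difference 0.35, SE 0.14, adjusted p = 1.00). Hoxb3 was at 19.3, 23.7 and 45.2 CPM in WT and 20.3, 34.1 and 75.99 CPM in TG (0.54, SE 0.24, adjusted p = 1.00). In both genes the genotypes overlapped. The 18 differences had a median of 0.02, against 0.01 over all genes. Of these, 13 were above 0 and 5 below 0, where 47.3% of all genes were below 0. Hoxc6 (0.00, SE 0.10) and Hoxc4 (0.13, SE 0.12) had among the smallest errors. No gene of the TALE, polycomb, trithorax or retinoic acid lists was called at 1 h.

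In pgWAT at 6 h, 8 of 22 tested Hox genes were lower in TG and 0 were higher. Over all 14359 genes, 7.54% were called lower and 6.88% higher (14.4% in all). Of the 22 differences, 20 were below 0 and 11 had an unadjusted p under 0.05, where 49.8% of all genes were below 0 and 26.6% had such a p. The median over the 22 was -0.33 and over all genes 0.00. By cluster, 3 of 5 tested HoxC genes, 4 of 8 HoxB genes, 1 of 3 HoxD genes and 0 of 6 HoxA genes were lower. By position, 5 of 8 tested members of paralogue groups 1 to 4, 3 of 11 of groups 5 to 8 and 0 of 3 of groups 9 to 13 were lower. Whether the shares differ between clusters or positions was not tested. With scaling by total gene counts alone the all-gene calls moved from 988 higher and 1083 lower to 665 and 1457, and 10 Hox genes were lower, the 8 included.

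**Figure D3:**
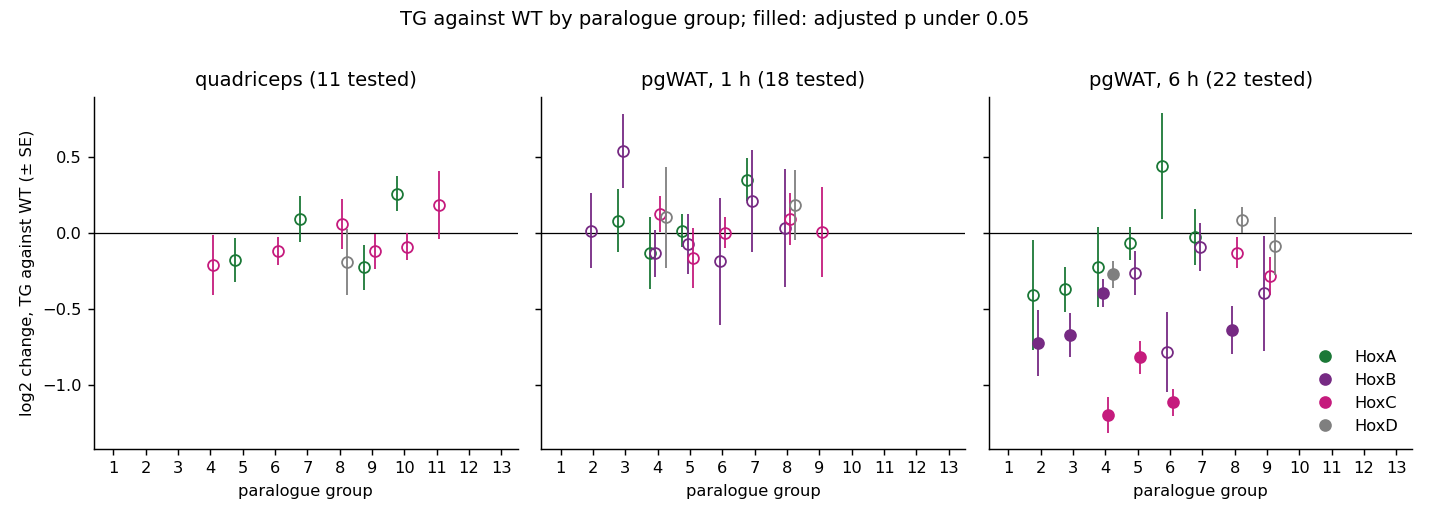
Log2 difference between TG and WT with its SE for every tested Hox gene, by paralogue group, in quadriceps (n = 10 a group), pgWAT at 1 h (n = 9) and pgWAT at 6 h (n = 6); filled points had an adjusted p under 0.05. No point is filled in the first 2 panels, and the 8 filled points at 6 h lie between -1.20 and -0.27.

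The clearest differences were in HoxC, at 3 neighbouring genes at the 3′ end of the cluster. They lie on chromosome 15, Hoxc6 at 102998257 to 103011881, Hoxc5 at 102967443 to 103017429 in its longest model and Hoxc4 at 103018934 to 103036852. Hoxc6, a trunk gene and the second most abundant Hox transcript of WT fat at 6 h, was at 88.6, 100.9, 79.9, 86.7, 118 and 95.1 CPM in WT replicates 1 to 6 and at 45.3, 41.4, 45.2, 46.1, 38.02 and 46.2 CPM in TG replicates 1 to 6. Every TG library lay below every WT library, and the log2 difference was -1.12 (SE 0.09, edgeR adjusted p = 1.60e-07). Hoxc4, the 3′-most gene of the cluster, was at 40.1, 48.2, 30.7, 34.0, 47.7 and 39.3 CPM in WT and at 17.1, 15.4, 20.4, 19.7, 15.8 and 16.1 CPM in TG. Again the groups did not overlap, with a difference of -1.20 (SE 0.12, edgeR adjusted p = 1.76e-06). Hoxc5, whose 3′ end lies between theirs, was at 23.1, 23.0, 27.7, 23.7, 33.8 and 26.9 CPM in WT and at 13.96, 14.4, 16.7, 14.05, 13.3 and 17.2 CPM in TG. Its groups did not overlap either, and the difference was -0.82 (SE 0.11, edgeR adjusted p = 5.31e-05). Counting Hoxb8 below, 4 of 22 tested members had all TG below all WT libraries, where 3.75% of all genes did.

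The next genes of the same cluster did not pass the test. Hoxc8, the most abundant, was at 280, 326 and 408 CPM in WT and 254, 301 and 382 CPM in TG (log2 difference -0.13, SE 0.10, edgeR adjusted p = 0.468). Hoxc9 was at 34.1, 39.3 and 46.7 CPM in WT and 20.7, 34.4 and 38.8 CPM in TG (-0.28, SE 0.13, edgeR adjusted p = 0.154). A ratio of 2 genes in the same library does not depend on scaling. The count of Hoxc6 was 0.247 to 0.318 of that of Hoxc8 in WT at 6 h and 0.118 to 0.178 in TG. The count of Hoxc4 was 0.107 to 0.139 of that of Hoxc8 in WT and 0.0504 to 0.0716 in TG. Both ratios separated the genotypes at 6 h. Hoxc4 and Hoxc6 already did so by CPM and Hoxc8 was not called, so the ratios show only that scaling does not matter here. At 1 h they overlapped: Hoxc6 to Hoxc8 was 0.663 to 1.28 in WT and 0.573 to 1.00 in TG. In the vM21 annotation, Hoxc4, Hoxc6, Hoxc8 and Hoxc9 share no exon bases with another gene, whereas a long Hoxc5 model shares bases with Hoxc10 on the same strand.

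**Figure D4:**
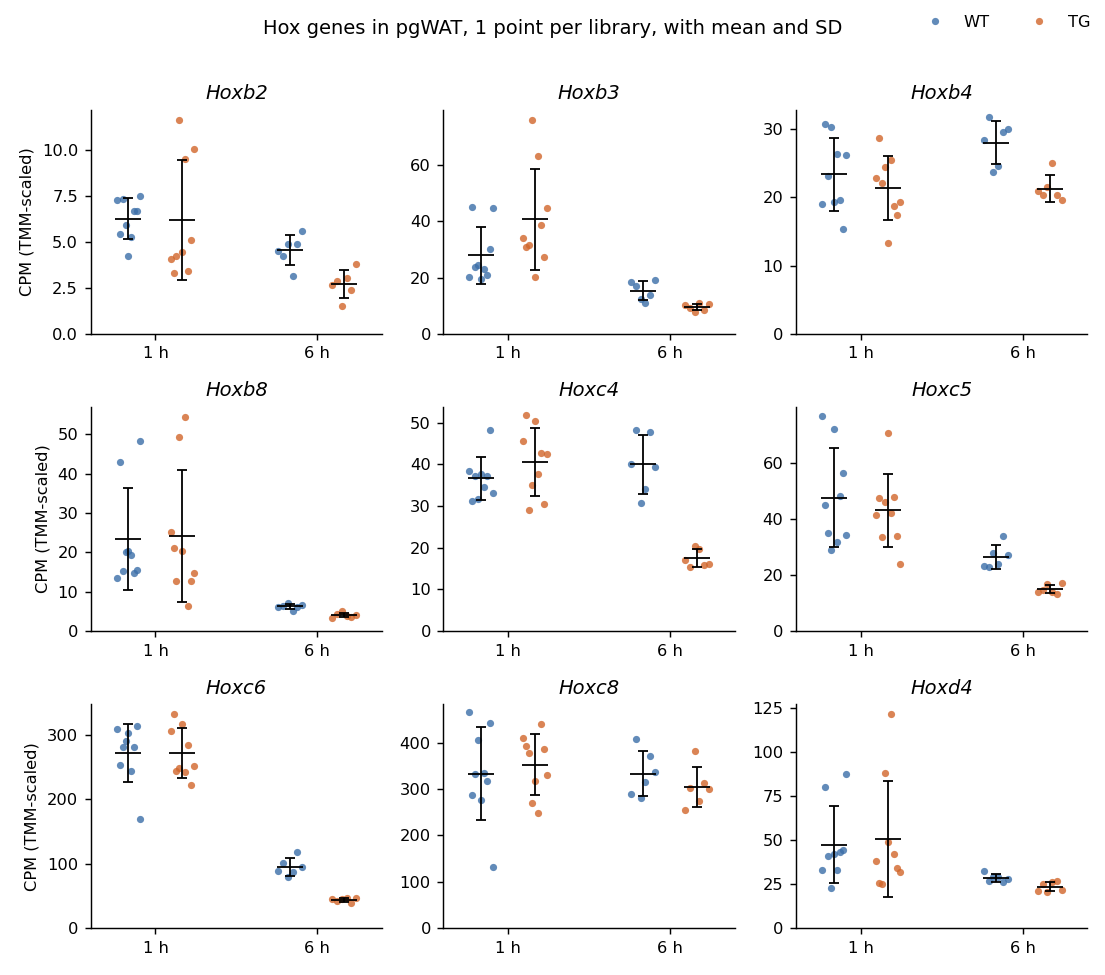
CPM of the 8 Hox genes called at 6 h and of Hoxc8 in every pgWAT library, WT in blue and TG in orange, at 1 h and at 6 h; dashes and bars are the mean and SD, and each panel has its own axis from 0. At 6 h the TG points of Hoxc4, Hoxc5, Hoxc6 and Hoxb8 lie below all WT points, and those of Hoxc8 overlap them.

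In HoxB the 4 called genes were Hoxb2 (chromosome 11, 96350525 to 96354012), Hoxb3 (96323326 to 96347930), Hoxb4 (96318267 to 96321638) and Hoxb8 (96281905 to 96285315). Hoxb3, a gene of the hindbrain and neck region in the embryo, was at 10.9, 15.4 and 18.99 CPM in WT and 7.87, 9.67 and 10.997 CPM in TG (log2 difference -0.67, SE 0.15, edgeR adjusted p = 0.00414). Hoxb4, its neighbour, was at 23.7, 28.9 and 31.8 CPM in WT and 19.6, 20.6 and 25.0 CPM in TG (-0.39, SE 0.09, edgeR adjusted p = 0.00700). In both, 5 of 6 TG libraries were below all WT libraries. Hoxb8 was at 5.04, 6.20 and 7.15 CPM in WT and 3.38, 3.98 and 4.93 CPM in TG (-0.64, SE 0.16, edgeR adjusted p = 0.00936). Its groups did not overlap. Hoxb2 was at 3.14, 4.69 and 5.57 CPM in WT and 1.53, 2.76 and 3.78 CPM in TG (-0.72, SE 0.22, edgeR adjusted p = 0.0328). The other 4 tested HoxB genes were below 0 without passing the test. Of these Hoxb6, at 3.56, 6.24 and 8.51 CPM in WT and 1.997, 3.08 and 5.02 CPM in TG, was just outside the threshold (-0.79, SE 0.26, edgeR adjusted p = 0.0543), and Hoxb5, Hoxb7 and Hoxb9 were at -0.27, -0.09 and -0.40.

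In HoxD 1 gene was called, Hoxd4 (chromosome 2, 74711929 to 74729160), and in HoxA 0. Hoxd4 was at 26.3, 28.2 and 32.3 CPM in WT and 20.2, 23.3 and 26.7 CPM in TG (-0.27, SE 0.09, edgeR adjusted p = 0.0497). The 6 tested HoxA genes ranged from -0.41 (Hoxa2) to 0.44 (Hoxa6). The abundant Hoxa5 (-0.07, SE 0.11) and Hoxa7 (-0.03, SE 0.18) did not pass the test. In HoxD, Hoxd8 was at 20.3, 22.1 and 26.7 CPM in WT and 22.1, 24.7 and 26.2 CPM in TG (0.09, SE 0.09, edgeR adjusted p = 0.574), and Hoxd9 was at -0.09. Hoxb2 and Hoxb3 overlap the antisense RNA Hoxb3os, and Hoxd4 overlaps Hoxd3 and Hoxd3os1, and whether counting used the strand is not given in the sources used here. Hoxb3os (-0.15) and Hoxd3os1 (-0.11) were not called.

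With each library left out in turn, Hoxb3, Hoxb4, Hoxb8, Hoxc4, Hoxc5 and Hoxc6 stayed called in all 12 fits. Hoxb2 lost its call without WT 1, WT 3, WT 5, WT 6, TG 1, TG 3 or TG 5, with differences of -0.73, -0.70, -0.70, -0.66, -0.71, -0.61 and -0.69 and an adjusted p of up to 0.0766. Hoxd4 lost its call without any 1 of WT 1 to 6, TG 1, TG 2, TG 3 or TG 6, with differences from -0.29 to -0.23 and an adjusted p of up to 0.121. Hoxb6 was called without WT 3, WT 4, TG 2 or TG 6, with differences of -0.88, -0.90, -0.91 and -0.91. With the replicate number as a block, Hoxb2 (adjusted p = 0.0562) and Hoxd4 (0.0968) were not called and Hoxb6 (0.0422) was. TG 2 held liver markers at a sum of 1444 CPM, against 43.9 to 77.2 CPM in WT, and 8 Hox genes were called without it: 7 of the 8 called with all libraries, and Hoxb6. Of 14539 genes, 889 were then called higher and 971 lower.

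Cell type markers were read in the same 6 h libraries. The summed markers of stromal progenitors, 11 of 11 detected, were at 3039 to 3606 CPM in WT and 2915 to 3899 CPM in TG, and their median log2 difference was 0.04, with 1 of 11 higher (Fmo2, 0.86) and 0 lower. Of 7 adipocyte markers 1 was higher (Cidec, 0.38) and 0 lower, and no endothelial or macrophage marker was called. Of 9 mesothelial markers 1 was lower (Wt1, -0.70), and their sum was 161 to 320 CPM in WT and 88.2 to 384 CPM in TG. Summed smooth muscle markers were 211 to 407 CPM in WT and 305 to 577 CPM in TG, with 0 of 4 called. Summed lymphocyte markers, 7 of 7 detected, were 6.22 to 28.5 CPM in WT (median 13.52) and 3.49 to 9.70 CPM in TG (median 6.60), lower in TG as the called Hox genes were, with overlapping ranges and 0 of 3 tested called. Summed inducible heat shock genes were 35.01 to 57.3 CPM in WT and 53.8 to 83.6 CPM in TG. Summed myofibre markers were 23.4 to 52.3 CPM in WT and 60.8 to 116 CPM in TG, and 1 of 2 tested was higher (Acta1, 1.26). The part of these in the Hox differences was not tested.

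Genes known to work with or upstream of Hox genes were taken from fixed lists. Of 8 tested TALE cofactors 2 were lower at 6 h, Meis2 (37.6 ± 6.60 CPM in WT, SD, n = 6, log2 difference -0.44, edgeR adjusted p = 0.0156) and Meis1 (-0.40, edgeR adjusted p = 0.0426), and 0 were higher. Of 20 polycomb genes 4 were lower and 1 higher. Those lower with the smallest p were Cbx8, a chromodomain subunit (10.97 ± 0.697 CPM in WT, -0.93, edgeR adjusted p = 8.84e-05), Phf1 (-0.47) and Jarid2 (-0.40). Cbx6, which was lower (-0.27), and Phc2, which was higher (0.36), are named after their values were seen. For these lists as for the others at 6 h, the background is the 7.54% of all genes called lower and 6.88% called higher. Of 13 trithorax and related genes 3 were lower, Dot1l (-0.43), Psip1 (-0.34) and Kdm6b (-0.60), and 0 were higher. Of 13 retinoic acid genes 2 were lower and 1 higher: the receptor Rarg (53.6 ± 6.08 CPM in WT, -1.06, edgeR adjusted p = 2.95e-06), the retinol dehydrogenase Rdh10 (-0.50) and the retinaldehyde dehydrogenase Aldh1a1, which rose by 0.49. Of 6 other homeobox genes 1 was lower (Prrx1, -0.51), both tested T-box genes were lower (Tbx18, -0.62, and Tbx3, -0.56), and 0 of 5 noncoding RNAs of the clusters and 0 of 2 upstream and ParaHox genes were called. The median log2 difference was -0.31 for the TALE list, -0.08 for polycomb, -0.14 for trithorax and -0.11 for retinoic acid, against 0.00 over all genes.

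Whether the genotype difference itself changed between 1 h and 6 h was tested as an interaction over both pgWAT sets. It was called for 3 of 20 Hox genes tested, all towards lower in TG at 6 h, where 2.33% of 13022 genes were called in that direction and 4.21% in either. The 3 were Hoxc4 (interaction -1.32, SE 0.17, edgeR adjusted p = 6.59e-06), Hoxc6 (-1.12, SE 0.15, edgeR adjusted p = 9.38e-06) and Hoxb3 (-1.21, SE 0.32, edgeR adjusted p = 0.0223). For Hoxc6 the genotype difference was 0.00 at 1 h and -1.12 at 6 h, and for Hoxc4 0.13 and -1.20. Hoxb3 had the opposite sign at 1 h (0.54) from that at 6 h (-0.67). For Hoxc5 (-0.65, edgeR adjusted p = 0.194) a change between times was not shown, and all 20 interaction values were below 0, where 49.6% of all genes were. All 3 calls held in each of 30 fits without 1 library, and Hoxb3 lost its call with no filter on low counts (adjusted p = 0.0516). Of the companion lists, Kdm6b (-0.86) and Rarg (-1.16) were called in the same direction. Kit and depth differ between the 2 time points, and their part in the interaction cannot be told apart from that of time.

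The 1 h libraries also differed among themselves in Hox genes within each genotype. In 4 of 18 libraries, WT 2, WT 9, TG 4 and TG 6, summed epithelial markers were 173 to 309 CPM. Summed markers of the epididymal duct were 136 to 343 CPM in the same libraries. In the 14 others they were 2.41 to 103 CPM, the highest in WT 6. The part of such tissue in the Hox values was not tested. In these 4 libraries, 6 of 27 Hox genes with at least 10 counts over the set lay above all 14 other libraries (Hoxa3, Hoxb3, Hoxb7, Hoxb8, Hoxb9 and Hoxd4), where 5.34% of 19586 genes with as many counts did. Among members that passed the count filter it was 5 of 18, where 1.88% of 11087 genes did. Hoxb9 was at 13.6 to 28.2 CPM in the 4 and 0 to 6.94 CPM in the others. Hoxd4 was at 80.2 to 122 CPM against 22.9 to 48.6, and Hoxb8 at 42.8 to 54.3 CPM against 6.25 to 25.2. Hoxc8 had the opposite order of medians, 260 CPM in the 4 and 383 CPM in the others, with overlapping ranges. Each genotype held 2 of the 4 libraries, and without them 0 of 16 tested Hox genes were called between the genotypes. Liver markers summed to 2278 CPM in WT 7 and 8825 CPM in TG 3, against 25.7 to 511 CPM in the other 16 libraries at 1 h, and without these 2 libraries 0 of 18 tested Hox genes were called.

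**Figure D5:**
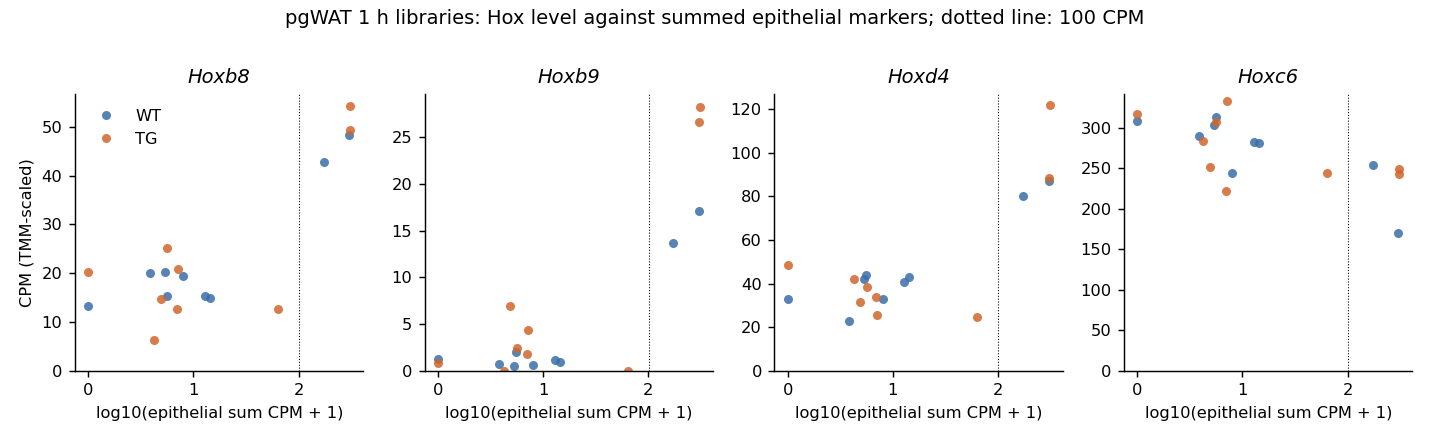
CPM of 4 Hox genes in each pgWAT library at 1 h against the summed CPM of epithelial markers (log10 of the sum + 1), WT in blue and TG in orange; the dotted line is at 100 CPM. Hoxb8, Hoxb9 and Hoxd4 are higher in all 4 libraries to the right of the line, and Hoxc6 is not.

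Members with few counts completed the set. The 21 detected but untested members of quadriceps had 1 to 205 counts each over 20 libraries. Among them Hoxa6, Hoxa13, Hoxc13, Hoxd13 and Hoxb1 had 1 to 13 counts each over all 20 quadriceps libraries, and Hoxd1 and Hoxd3 had 0. At 1 h Hoxa2, Hoxa9, Hoxa10, Hoxc10, Hoxd3, Hoxd9 and Hoxd10 had 18 to 100 counts each over 18 libraries and were not tested, nor was Hoxb9 (260 counts). Hoxa10 at 1 h was unevenly spread, detected in 7 of 18 libraries, with 4.46 CPM in 1 WT library and 6.46 CPM in 1 TG library as the highest of each genotype. At 6 h Hoxa9 had 75 counts in WT and 34 in TG and Hoxc10 36 and 15, both under the filter, as were 9 further detected members. The library WT 6 alone held 33 of the 75 Hoxa9 counts and 13 of the 36 Hoxc10 counts. Hoxd3 was detected in 11 of 18 libraries at 1 h with 40 counts and in 3 of 12 libraries at 6 h with 3 counts.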

How the data were processed

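RNA of quadriceps and pgWAT was measured by 3′ tag sequencing. Per the labels' protocols, quadriceps and pgWAT at 1 h used QuantSeq FWD with a UMI (molecular barcode) second strand module and 12 nt dual indices, and pgWAT at 6 h used QuantSeq FWD for Illumina. The authors deposited 3 tables of whole-number read counts per gene, which are not normalized. Per the submitters' processing notes, STAR 2.7.10, cutadapt 1.18, bcl2fastq 2.20.0.422 and UMI-tools 1.1.2 were used, and GRCm39 and GRCm38 are named without a role. The counter, the use of strand in counting and the handling of UMIs are not given in the sources used here. All per-sample columns were used (0 left over). Rows that name no gene (5, 5 and 121) were left out, and gene rows held a mean of 74.9%, 65.3% and 99.8% of counts.

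Hox members were found by symbol in the 6 h table and joined to the others by gene identifier without version. Coordinates come from GENCODE vM21 (GRCm38). Each comparison was fitted over all genes of its table with edgeR 4.0.16 in R 4.3.3: filterByExpr with a minimum count of 10, TMM scaling, the quasi-likelihood test and Benjamini-Hochberg adjustment at 0.05. CPM values are scaled by TMM within a set. The interaction and the tissue comparison joined 2 tables on shared identifiers. Named with values were Hox genes called in a genotype comparison or the interaction, the 5 highest members and the highest of each cluster in a set, the 6 of smallest p in each direction between tissues, and up to 3 called genes a list and comparison. Other members and list genes given as contrast were chosen after their values were seen. A member and 5 list genes are not reported here and are left out of the counts, medians and sums over members and lists, but not of the fits. The members and lists were chosen with earlier results of these data known. Alternatives were DESeq2 1.42.0, RLE scaling, other count filters, a replicate block, the remainder of the library number divided by 8 as a factor in quadriceps and 1 h, other tissue groups and leaving out each library; total-count scaling and leaving out libraries high in foreign or heat shock markers were added after the data were seen. On simulated counts, 2-fold changes were called in 98.3% of changed genes for quadriceps (8063 genes), 81.7% for 1 h (11232), 76.1% for 6 h (14408) and 61.4% for the interaction (13098), and 1.5-fold changes in 75.0%, 54.5%, 47.1% and 31.1%. False calls made up 2.94%, 4.46%, 4.83% and 8.33% of the calls in the same order, the last above the 0.05 aimed at. No 2 libraries of a group agreed within sampling noise (lowest reduced chi-square 1.56). The quadriceps library titled TG replicate 10 carries a 1 h treatment label, and its title was followed. Reads without stated UMI collapsing are not independent molecules, so limits from counts cover counting error only, and the count of 3 used as a limit for 0 is per library unless a group is named.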

Additional observations from a re-analysis of the deposited data

Results flagged for a closer look

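In each genotype and set, the highest or lowest library was compared with the others by its gap to the nearest library as a share of the range. Of 102 such groups, 10 had a library beyond the 95% limit, where chance alone gives about 1 in 20, or 5.1. In quadriceps, Hoxd8 was at 19.3 CPM in TG 1 and 6.29 to 12.7 CPM in the other TG libraries. In pgWAT at 1 h, Hoxb6 was at 19.97 CPM in TG 4 (others 0 to 9.84), Hoxb7 at 39.5 CPM in WT 9 (others 6.70 to 22.2), Hoxc4 at 48.1 CPM in WT 8 (others 31.2 to 38.5) and Hoxc9 at 42.3 CPM in TG 8 (others 10.5 to 25.6). Hoxc6 was lowest in WT 9, at 169.7 CPM against 244 to 314 CPM. WT 9 and TG 4 are 2 of the 4 libraries high in epithelial markers, and WT 9 also held germ cell markers of the testis at 2413 CPM; their part in these values was not tested.

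In pgWAT at 6 h, TG 2 was highest for Hoxb9, at 2.79 CPM against 0.562 to 1.37. TG 4 was highest for Hoxa4, at 5.30 CPM against 1.85 to 3.07, and for Hoxb4, at 25.0 CPM against 19.6 to 21.5. WT 5 was highest for Hoxb7, at 14.1 CPM against 9.64 to 10.7. The genotype difference itself differed between 6 h and 1 h, by the interaction test, for Hoxb3 (-1.21), Hoxc4 (-1.32) and Hoxc6 (-1.12).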

How the results depend on the processing

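The count of called Hox genes stayed within 1.5 times of that reported in all 118 alternatives. Leaving out each library gave 0 in quadriceps (20 fits), 0 at 1 h (18), 6 to 8 at 6 h (12) and 3 in the interaction (30). DESeq2 called 9 at 6 h, 3 in the interaction and 23 in the tissue comparison. Its calls over all genes were 1177 higher and 1256 lower of 17046, 392 and 392 of 16403, and 4716 and 6797 of 17885. No count filter gave 7, 2 and 26 Hox genes. The calls over all genes were then 893 higher and 991 lower of 26413, 187 and 227 of 29891, and 5345 and 6910 of 27065. With TG libraries, 15 of 17 tested Hox genes differed between tissues, where 3881 of 9708 genes were called higher and 4076 lower. The replicate block called 0, 0, 7 (6 of the 8) and 3 in quadriceps, 1 h, 6 h and the interaction. Over all genes it called 869 higher and 1005 lower of 14359 at 6 h, and 238 and 319 of 13022 in the interaction. Same-numbered libraries correlated at -0.18 to 0.20 in quadriceps, -0.18 to 0.37 at 1 h and -0.09 to 0.11 at 6 h, and 2 of 10, 1 of 9 and 0 of 6 pairs matched best with their own number. The labels do not say what the numbers stand for, and these correlations cannot exclude a pairing. Of values for single genes, 448 kept their status, called or not called, 27 lost a call, 9 gained a call and 1 turned. Those that kept it include fits of genes not called at the outset: Hoxa10 in quadriceps, Hoxa7 and Hoxb3 at 1 h and Hoxb6 at 6 h. The value that turned was Hoxc6 between tissues, at 0.11 (edgeR adjusted p = 0.358) against pgWAT at 6 h, where the cause was not tested. Over all genes, calls at 1 h ranged from 3 to 23 against 8. In quadriceps 0 of 10 HoxB members passed the filter, so none was tested at this depth and level.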

Other observations

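The HoxA RNA Halr1, at 2.97 ± 2.61 CPM in WT (SD, n = 6), had a difference of -1.74 that was not called (edgeR's quasi-likelihood test, adjusted p = 0.0653).

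In pgWAT at 6 h, summed Hox CPM was 674 to 914.7 in WT with a median of 784, and 557 to 715 in TG with a median of 638. Paralogue groups 1 to 4 summed to 114 to 143 CPM in WT and 80.2 to 100.7 CPM in TG, without overlap. Groups 5 to 8 summed to 512 to 725 CPM in WT and 449 to 590 CPM in TG. Groups 9 to 13 summed to 42.0 to 59.6 CPM in WT and 25.7 to 45.8 CPM in TG. Both overlapped between the genotypes, as did the sum of each cluster. Paralogue groups 9 to 13 held a median of 6.01% of Hox CPM in WT and 6.09% in TG. These sums include the genes already described and were not tested.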
